A study of Pinus pinaster with 12 samples.

Results

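The transcripts of maritime pine (Pinus pinaster) roots were compared between seedlings given ammonium and seedlings given water, in the 6 libraries made from RNA that had not been immunoprecipitated (the inputs). All 253670 transcript IDs of the count table were taken, of which 204657 had a read in these libraries and 114887 had enough reads to be tested. Each group held 3 of the 12 libraries of the series. The other 6 came from RNA enriched with an antibody to m6A, that is N6-methyladenosine, a base modification found in messenger RNA, and serve here only as a second readout. The series was set up to study ammonium nutrition and m6A together, and the inputs carry the question of which transcripts changed in abundance.

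All seedlings were 1 month old, of the Segura-Alcaraz provenance, and grown in vermiculite on distilled water. After 3 days of acclimation the control group received 80 mL of water and the treated group 80 mL of 3 mM NH4Cl. Whole roots were frozen 24 h later. The experiment was run 3 independent times per the labels' protocols. The number of seedlings per library is not given in the sources used here. Chloride was supplied with the ammonium and not with the water, so responses to the 2 ions cannot be told apart. In whole roots, a change in RNA per cell and a change in the share of a cell type cannot be told apart either. The IDs carry no gene names in the files, so no role is given to any transcript, and markers of root cell types or of other tissues could not be looked up.

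As background, ammonium enters root cells through transporters of the AMT family and is built into glutamine by glutamine synthetase and then into glutamate by glutamate synthase. Conifers of acidic forest soils meet much of their inorganic nitrogen as ammonium. Besides being a nutrient, ammonium is a signal that alters root growth and gene expression in plants, and in excess it is toxic.

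The inputs were sequenced to between 69030249 and 81534388 counts, and 99.7% of their reads lay on tested transcripts. Levels are given in CPM (the count scaled to the total of its library), without correction for transcript length, so they compare libraries and not transcripts. Replicate 1 of the ammonium inputs stood apart from its group. The SD of its log2 differences, over transcripts of at least 1 CPM, was 0.481 and 0.457 against the other 2 ammonium libraries but 0.376, 0.441 and 0.406 against the 3 water libraries. The other 2 ammonium libraries differed from each other by an SD of 0.341 and from the water libraries by 0.484 to 0.611. On the first principal component, with 47.4% of the variance, this library scored -10.4, the water libraries -53.7 to -31.1 and the other ammonium libraries 58.0 and 82.0. Results are therefore given with and without it. The p-values below rest on how far 3 libraries of 1 group lay apart.

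More transcripts passed the test as higher with ammonium than as lower. With edgeR's quasi-likelihood test and Benjamini-Hochberg adjustment, 440 transcripts were called higher (0.383% of those tested) and 47 lower (0.0409%), 0.424% in all, at an adjusted p under 0.05. All 487 had groups that did not overlap, against 15.8% of all tested transcripts. The 440 higher transcripts took 0.739% to 0.858% of the reads in the water libraries and 1.37% to 1.66% in the ammonium libraries, a gain of 7414 CPM. The 47 lower ones took 0.0215% to 0.0256% with water and 0.00937% to 0.0112% with ammonium, a loss of 137 CPM on average. These shares describe transcripts picked by the same contrast and carry no test.

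The size of the list rested on single libraries and on the method. Other scalings of the libraries called 477 (0.415%) or 342 (0.298%), a stricter filter on reads 252 (0.347%), no filter 2461 (1.20%), DESeq2 2687 (2.52%) and limma with sample weights 2641 (2.30%). A fit of all 12 libraries called 0 (0%; 4442 at an unadjusted p under 0.05). Without replicate 1, 2 or 3 of the water inputs 39, 90 or 250 transcripts were called (0.0327%, 0.0744% and 0.209% of those tested), and without replicate 2 or 3 of the ammonium inputs 305 or 228 (0.253% and 0.191%). Without replicate 1 of the ammonium inputs 4921 were called (4.08%), of which 2494 were higher and 2427 lower, so that 50.7% of the calls were higher, against 90.3% with all 6 libraries. Each of the 487 kept its sign in all 6 of these fits. Their groups did not overlap, so leaving out 1 library could hardly change a sign, and this is no test of direction. Without ammonium replicate 1, 440 of the 440 higher and 46 of the 47 lower transcripts were called again. The other omissions kept far fewer. Without water replicate 1, 2 or 3, 36, 76 or 190 of the higher and 3, 13 or 17 of the lower transcripts were called again. Without ammonium replicate 2 or 3 these counts were 209 or 182 and 17 or 12.

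The transcripts described next were chosen by rank of p, of fold, of level and of run length. Of these 29, 11 kept their call whichever input library was left out. The transcript pp_235803 stood at 2.06, 1.96 and 2.32 CPM with water and at 15.03, 11.4 and 10.4 CPM with ammonium, a log2 fold change of 2.60 (SE 0.17, adjusted p = 0.00161). The transcript pp_198268 stood at 0.711, 0.847 and 0.956 CPM against 4.55, 3.78 and 4.38 (log2 fold change 2.39, SE 0.19, adjusted p = 0.00192). In both, the lowest ammonium library lay more than 3-fold above the highest water library.

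The transcript pp_209110 had 14.1, 13.0 and 16.2 CPM with water and 41.8, 52.1 and 41.0 with ammonium (log2 fold change 1.70, SE 0.12). For pp_105375 the values were 14.0, 13.1 and 13.7 against 33.6, 37.6 and 45.5 CPM (log2 fold change 1.57, SE 0.11), and the water libraries lay within a narrow band. The ID pp_105383, 8 numbers on, had 11.3, 10.5 and 10.1 CPM with water and 25.6, 28.9 and 31.9 with ammonium (log2 fold change 1.49, SE 0.11). Each of these 3 had an adjusted p of 0.00161 (edgeR).

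Among transcripts with many reads, pp_134758 doubled: it stood at 377.7, 304.5 and 373.6 CPM with water and at 714.3, 744.8 and 706.1 with ammonium, a log2 fold change of 1.09 (SE 0.09, adjusted p = 0.00205). Its ammonium libraries lay closer together than its water libraries. It had the highest level of all called transcripts and kept its call in each fit without 1 library. The next were pp_200207, with 342.5, 300.7 and 355.5 CPM against 517.7, 601.8 and 534.0 (log2 fold change 0.78, SE 0.09, adjusted p = 0.0102), and pp_74570, with 326.4, 251.1 and 306.6 against 416.2, 467.9 and 604.6 (log2 fold change 0.80, SE 0.13, adjusted p = 0.0388). The call of pp_200207 was lost without water replicate 1 or 2, and that of pp_74570 remained only without ammonium replicate 1.

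Among the largest rises were those of transcripts nearly silent with water. The transcript pp_191901 went from 0.0981, 0.0794 and 0.0580 CPM to 0.801, 2.11 and 0.803 (log2 fold change 3.99, SE 0.53, adjusted p = 0.0143), and pp_83984 from 0.0736, 0.159 and 0.261 to 1.23, 3.53 and 2.56 (log2 fold change 3.96, SE 0.51, adjusted p = 0.0188). In pp_222887 the reads were 2, 0 and 0 with water and 44, 83 and 51 with ammonium. In these 3 the ammonium libraries differed among themselves by up to about 3-fold, and each lay above every water library. The calls of pp_191901, pp_83984 and pp_222887 were each lost without water replicate 1 or water replicate 2. That of pp_191901 was also lost without water replicate 3, and that of pp_83984 also without ammonium replicate 3.

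The clearest falls were close to switches. The transcript pp_1921 had 607, 416 and 502 reads with water and 32, 44 and 24 with ammonium (log2 fold change -3.90, SE 0.25), and pp_166457 had 445, 335 and 240 against 17, 23 and 14 (log2 fold change -4.20, SE 0.29). In pp_18860 the reads were 151, 78 and 83 against 5, 4 and 4 (log2 fold change -4.51, SE 0.39, adjusted p = 0.00228). All 3 kept their calls without any 1 library. In pp_101255 the reads were 79, 66 and 75 against 2, 2 and 0, and in pp_55810 they were 77, 53 and 26 against 0, 0 and 1. The call of pp_101255 was lost without water replicate 1, and that of pp_55810 without water replicate 1 or 2. The transcript pp_9618 had 511, 362 and 962 reads against 22, 44 and 27, with water replicate 3 well above the other 2, and its call was lost in 4 of the 6 fits without a library, the one without ammonium replicate 1 among them.

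Lower transcripts at higher levels changed less and were less secure. The transcript pp_105585, the highest of them, had 23.1, 19.1 and 23.5 CPM with water and 13.4, 9.23 and 12.4 with ammonium, a log2 fold change of -0.85 (SE 0.14, adjusted p = 0.0404). For pp_83420 the values were 23.6, 19.8 and 18.5 against 12.5, 8.47 and 10.1 CPM (log2 fold change -0.94, SE 0.16, adjusted p = 0.0446). The groups did not overlap in either, but both calls, like those of pp_183519 and pp_201107, remained in only 1 of the 6 fits without a library, the one without ammonium replicate 1.

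**Figure D1:**
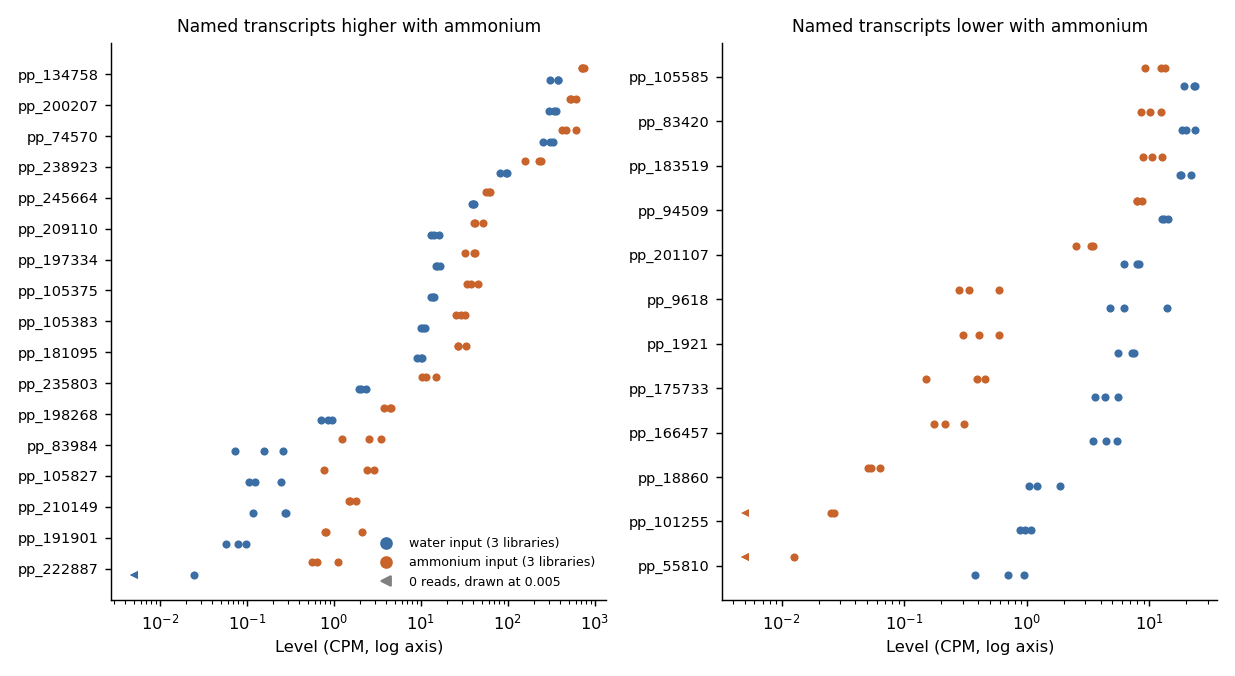
Level in CPM (log axis) of each named transcript in the 3 water inputs (blue) and the 3 ammonium inputs (orange), higher transcripts on the left and lower ones on the right, and each point is 1 library. In pp_235803 the water libraries lie at 1.96 to 2.32 CPM and the ammonium libraries at 10.4 to 15.03, and in none of the 29 transcripts do the groups overlap.

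The share of transcripts called grew with the level, and the lean towards higher transcripts grew with it. Of 37055 transcripts under 0.5 CPM (mean of the 6 inputs), 11 were called higher and 12 lower, 0.0621% in all. At 0.5 to 1 CPM 0.151% of 15928 were called, at 1 to 5 CPM 0.348% of 30185 (90 higher, 15 lower) and at 5 to 20 CPM 0.880% of 20444 (169 higher, 11 lower). At 20 to 100 CPM 132 of 9823 were higher, and at 100 CPM and above 23 of 1452. No transcript of at least 20 CPM was called lower with edgeR, although 468 and 60 in these groups had a lower level at an unadjusted p under 0.05, against 1282 and 188 with a higher one.

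The precision of a fold change followed the same order. The median SE of the log2 fold change fell from 0.53 under 0.5 CPM to 0.33, 0.22, 0.13, 0.11 and 0.10 in the groups above. The smallest log2 change that was called was 2.15 in the lowest group and 0.49 at 20 to 100 CPM. No smaller change passed among the faintest transcripts, so the shares called are not comparable between levels. These SEs hold both counting error and the spread between libraries.

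Without replicate 1 of the ammonium inputs the rise with level stayed and the lean did not. The share called was then 0.728% under 0.5 CPM, 4.74% at 1 to 5 CPM, 7.86% at 5 to 20 CPM, 10.3% at 20 to 100 CPM and 11.6% above. At 20 to 100 CPM 538 transcripts were then higher and 477 lower, and at 100 CPM and above 80 and 88. The absence of lower calls at these levels also depended on the method with all 6 libraries kept. At 20 to 100 CPM and at 100 CPM and above, DESeq2 called 81 and 7 lower, limma with sample weights 172 and 34, edgeR with no filter 81 and 22 and edgeR with library totals alone 2 and 0. Without water replicate 3 the counts were 5 and 1.

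The bulk of transcripts shifted little. The median log2 fold change was -0.06 under 0.5 CPM, -0.01 at 1 to 5 CPM, 0.03 at 5 to 20 CPM and 0.06 at 100 CPM and above, where 64.3% of transcripts had a fold change above 0. The middle 50% of transcripts at 20 to 100 CPM lay between -0.06 and 0.15. Single libraries shifted as much. Against the other 2 water libraries, water replicate 2 went from -0.08 under 0.5 CPM to 0.06 at 100 CPM and above, and water replicate 3 from 0.10 to -0.04. Against the water libraries, ammonium replicate 1 went from -0.12 to 0.11, whereas replicate 3 stayed at 0.03 in both groups. Ammonium replicate 2 went from 0.02 to 0.08, so in 2 of the 3 ammonium libraries the drift with level was smaller than in water replicates 2 and 3.

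How many transcripts had groups that do not overlap, and in which direction, depended on the scaling. In CPM, 6.92% of the tested transcripts had all ammonium libraries above all water libraries and 8.90% had them below. After trimmed-mean scaling the shares were 9.69% and 6.90%. At 20 to 100 CPM, after that scaling, 20.7% were above and 4.94% below. This tally is therefore given without a direction for the whole transcriptome.

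**Figure D2:**
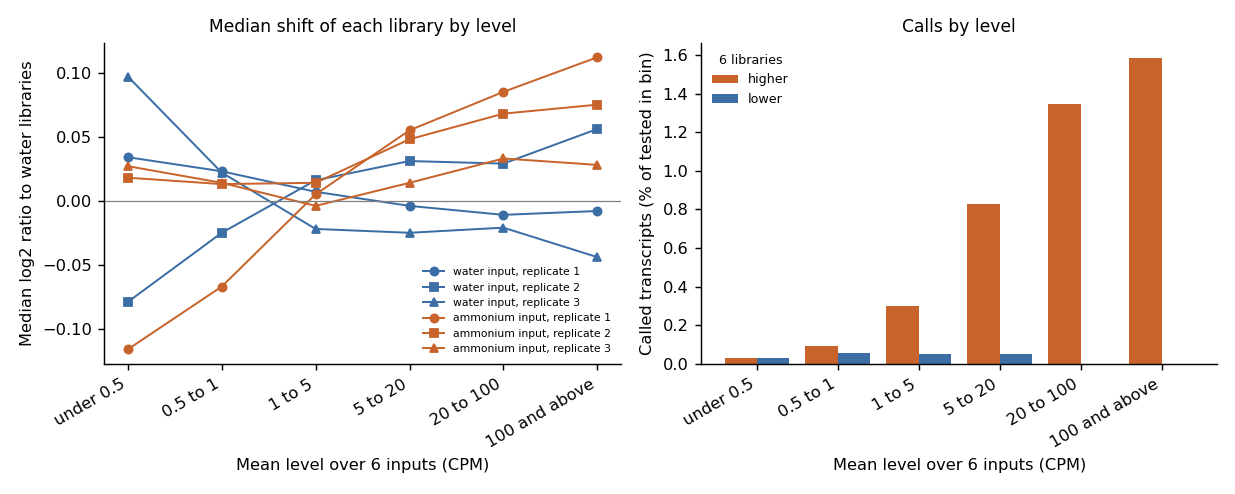
Left: median log2 ratio of each input library to the water libraries (a water library to the other 2), by mean level in CPM; 1 line is 1 library, and the lines of ammonium replicate 1 and water replicate 3 cross, from -0.12 to 0.11 and from 0.10 to -0.04. Right: percent of tested transcripts called higher (orange) or lower (blue) with edgeR on all 6 libraries, rising to 1.58% higher and 0 lower at 100 CPM and above.

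At 100 CPM and above 1.58% of tested transcripts were called, so few calls can fall among 20. Of the 20 transcripts with the highest mean level none was called. In 19 of them the log2 fold change lay between -0.50 and 0.26, and in the last, pp_134771, it was 4.18 with groups that did not overlap. The 100 with the highest mean took 6.72%, 6.87% and 6.50% of reads in the water libraries and 7.03%, 7.01% and 6.97% in the ammonium libraries, a difference of 0.310 percentage points (exact permutation test, two-sided, p = 0.1, below which 3 against 3 libraries cannot go). For the 10 highest the share was 1.54% ± 0.0171 in water libraries and 1.55% ± 0.0683 in ammonium libraries (SD, n = 3). The top 2, pp_94288 and pp_92107, had log2 fold changes of 0.005 (SE 0.08) and -0.004 (SE 0.08). The number of transcripts with at least 1 read ranged from 162946 to 169359 with water and from 159237 to 168062 with ammonium, and these ranges overlapped.

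Called IDs lay next to each other in the numbering. Of the 440 higher transcripts, 45.5% had a called higher transcript at the ID number directly before or after, where 0.383% of tested transcripts were called higher. Of the 47 lower ones, 14.9% had a called lower neighbour, and no higher transcript stood beside a lower one. Neighbours that were tested and not called leaned the same way. Of 518 beside a higher transcript, 399 (77.0%) had a fold change above 0, with a median log2 fold change of 0.43, against 50.4% and 0.00 among all tested. Of 42 beside a lower transcript, 35 lay below 0, with a median of -0.56.

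IDs of neighbouring number can be forms of 1 gene or copies of 1 family in an assembled transcript set, and how reads matching several IDs were counted is not given in the sources used here. Consecutive called IDs of 1 direction were therefore counted as 1 unit. The 487 calls formed 358 units, 315 higher and 43 lower. Of the higher units 240 were lone IDs and 75 were runs of 2 to 14 IDs with 200 IDs in all. Of the lower units 40 were lone IDs and 3 were runs. When runs were allowed to bridge 1 missing or uncalled ID the units numbered 309, and 260 when they could bridge up to 9, a limit chosen after seeing the data. When the counts of each run were summed and the table was fitted again, 243 units were called. Members were picked by this same contrast, so the adjusted p of a summed run below is description and no separate test. Without replicate 1 of the ammonium inputs there were 3078 units, and without 1 of the other input libraries 30 to 209.

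The longest run held all 14 IDs from pp_235799 to pp_235812. Their summed level was 47.0, 39.3 and 36.9 CPM with water and 161.2, 190.9 and 160.4 with ammonium (fitted log2 fold change of the sum 2.11, SE 0.13, adjusted p = 0.00167). Single members rose by log2 fold changes of 1.64 to 2.60. The IDs on either side, pp_235798 and pp_235813, had log2 fold changes of -0.19 and -0.13, so the run had sharp ends. All 14 members remained called without ammonium replicate 1 or 2 or water replicate 3, 12 without ammonium replicate 3 and 9 without water replicate 1 or 2.

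The members of this run fell into 2 patterns over the ammonium libraries. In 6 of them replicate 1 was the highest ammonium library after scaling, for example pp_235801 with 31.4, 21.1 and 22.5 CPM and pp_235808 with 8.72, 5.95 and 6.499. In the other 8 replicate 2 was highest and replicate 1 lowest, for example pp_235812 with 24.4, 43.2 and 30.5 CPM and pp_235805 with 7.02, 12.3 and 8.98. The 2 kinds were interspersed along the numbering. Among all 440 higher transcripts replicate 1 was the highest ammonium library in 58, replicate 2 in 287 and replicate 3 in 95. Over all 114887 tested transcripts these counts were 40711, 38982 and 35194.

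The second run, pp_197332 to pp_197338, was part of a longer stretch. From pp_197328 to pp_197343 all 16 IDs had a higher level at an unadjusted p under 0.05, and 12 of them were called, with log2 fold changes from 0.84 to 2.00 over the stretch. The 7 IDs of the run summed to 92.9, 88.3 and 96.9 CPM with water and 204.6, 233.5 and 207.1 with ammonium (fitted log2 fold change of the sum 1.27, SE 0.09, adjusted p = 0.00167). Here too the members differed. The first 4 had log2 fold changes of 1.35 to 2.00 and were highest in ammonium replicate 2, and the last 3 had 0.84 to 1.03 and were highest in replicate 1. Without water replicate 1, 2 of the 7 members remained called.

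A looser cluster lay around pp_105375 and pp_105383. Of the 11 IDs from pp_105375 to pp_105385, 7 were called, with log2 fold changes of 1.00 to 1.59, and 4 between them were not, at -0.36 (pp_105376), 0.72 (pp_105379), 0.64 (pp_105381) and 0.89 (pp_105384). The ID directly before it, pp_105374, had 0.54 (SE 0.19), and pp_105370 to pp_105373 had -0.21 to 0.02. Called and uncalled IDs were thus mixed within 1 cluster, and by the rule of consecutive IDs it counted as 5 units. All 9 IDs from pp_105377 to pp_105385 were higher at an unadjusted p under 0.05 in edgeR, so an uncalled ID was not always one without a rise.

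The longest stretch of all ran from pp_245648 to pp_245669. Its 22 IDs were all higher at an unadjusted p under 0.05, 12 were called, and the median log2 fold change was 0.69. Within it the run pp_245662 to pp_245666 summed to 132.0, 123.1 and 152.6 CPM with water and 215.3, 211.7 and 207.8 with ammonium (fitted log2 fold change of the sum 0.70, SE 0.09, adjusted p = 0.0178). None of these 5 members was called without water replicate 1, water replicate 2 or ammonium replicate 2, while their median log2 fold change stayed between 0.64 and 0.74 in those fits.

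Runs differed in how alike their members were. In the run pp_238919 to pp_238924 the 6 levels lay within 1.14-fold of each other (131.9 to 150.0 CPM) and the log2 fold changes within 0.04 of each other (1.22 to 1.25). How far reads shared between IDs set such near-equal values was not tested, so these 6 are uncertain as separate transcripts. Their sum was 531.0, 447.9 and 594.2 CPM with water and 894.3, 1293 and 1387 with ammonium. None of the 6 was called without water replicate 1 or without water replicate 2, with median log2 fold changes of 1.22 and 1.13. In the run pp_200206 to pp_200208 levels differed 15.5-fold while the log2 fold changes lay between 0.72 and 0.78. Over all 78 runs the highest level was 1.89 times the lowest at the median, and in 54 of them the log2 fold changes of the members differed by less than 0.2. These ratios of levels are in CPM without correction for transcript length, so differences in length enter them.

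Few runs showed a fall. The only lower run of more than 2 IDs, pp_94509 to pp_94511, summed to 30.0, 28.8 and 27.6 CPM with water and 16.8, 15.4 and 18.3 with ammonium (fitted log2 fold change of the sum -0.73, SE 0.10, adjusted p = 0.0242). The groups were well apart. All 3 members stayed called without ammonium replicate 1, and none did in the other 5 fits without a library. The higher run pp_83983 to pp_83985, rose from 0.589, 1.17 and 1.19 to 6.08, 19.0 and 12.6 CPM. Its 3 members were called singly, and their sum was not (log2 fold change 3.73, SE 0.53, adjusted p = 0.0837).

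**Figure D3:**
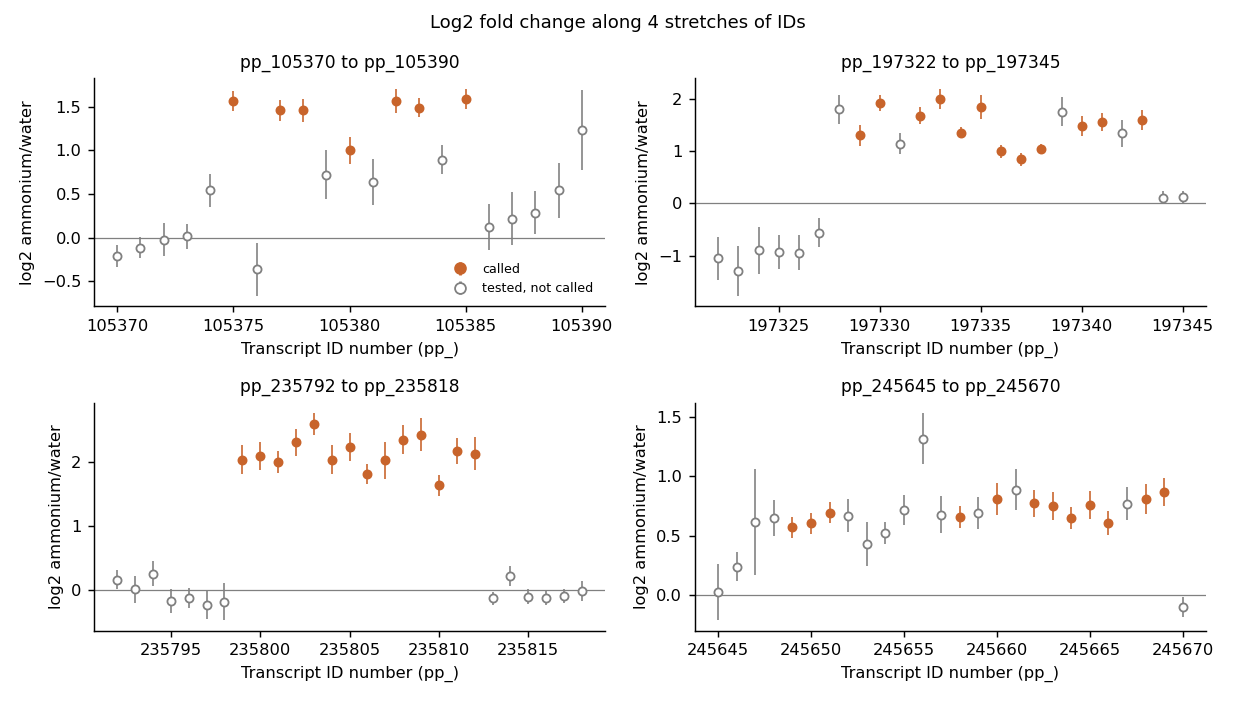
Log2 fold change of ammonium against water (points, with SE) for every tested ID along 4 stretches of the numbering, called IDs filled. The 14 IDs from pp_235799 to pp_235812 lie between 1.64 and 2.60 with flanks near 0, and the 16 IDs from pp_197328 lie above 0 right after 6 uncalled IDs at -1.30 to -0.57.

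Likeness of neighbours was also found between libraries of 1 treatment. For transcripts of at least 1 CPM, the log2 fold changes of IDs 1 number apart correlated at a Pearson r of 0.657 across 44597 pairs (Spearman rho 0.558), and r fell to 0.514 at a distance of 2, 0.228 at 5, 0.0477 at 10 and -0.00747 at 100. The log2 ratio of 2 water libraries, which share their treatment, gave an r of 0.444 to 0.593 at a distance of 1 and 0.128 to 0.167 at 5, and that of 2 ammonium libraries 0.441 to 0.568 and 0.151 to 0.215. The pairs of IDs share libraries and possibly reads and are no independent replicates. At a distance of 1 the value for the treatment lay above those of all 6 like pairs, and it also averages over 3 libraries a group. The part of shared reads in these values was not tested.

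**Figure D4:**
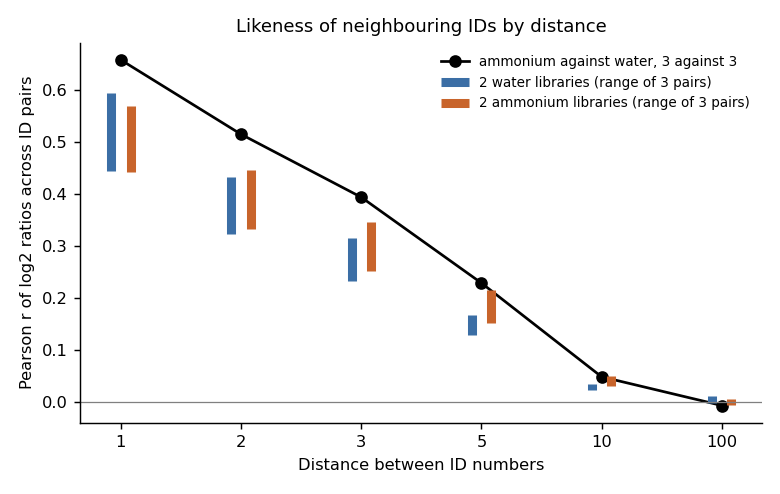
Pearson r across pairs of IDs of the log2 ratio, by the distance between the ID numbers, for ammonium against water (black) and for 2 libraries of the same treatment (bars: range of 3 pairs; blue water, orange ammonium). All fall together, from 0.657 for the treatment and 0.441 to 0.593 for like libraries at a distance of 1 to about 0 at 100.

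Some of the largest changes in the inputs did not pass the test. The groups below were picked after their values were seen and are given as description. Of 121 transcripts of at least 5 CPM with a fitted rise of 4-fold or more, 96 were not called, and in 89 of these every ammonium library lay above every water library. That held for 6.92% of all tested transcripts, and for 10% to 13.6% in the groups of levels from 5 CPM up. Picking rises of 4-fold or more favours such a gap, so the 89 are no separate result. In all 96 replicate 1 was the ammonium library nearest to the water libraries. A fall of 4-fold or more at that level was found in 1 transcript, which was not called. Without ammonium replicate 1, 57 of the 96 were called, against 7.86% to 11.6% of all tested transcripts in the groups of levels from 5 CPM up. As that replicate was the one nearest to water in all 96, its omission favours such calls, and the 57 are no separate result.

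The 3 with the highest levels, pp_134771, pp_134772 and pp_134776, lay in 1 block of 9 uncalled IDs, pp_134771 to pp_134779. Of these 9, pp_134774 and pp_134778 had fitted rises just under 4-fold (log2 fold changes of 1.98 and 1.86). Together they took 0.0726%, 0.0699% and 0.0567% of reads in the water libraries and 0.113%, 0.786% and 0.416% in the ammonium libraries. Against the mean of the water libraries that is 1.70-fold, 11.8-fold and 6.27-fold for ammonium replicates 1, 2 and 3. The ID pp_134771 alone went from 83.8, 140.6 and 80.2 CPM to 214.3, 3699 and 1446 (log2 fold change 4.18, SE 1.15, adjusted p = 0.319), and pp_134772 from 213.3, 181.8 and 167.7 to 318.6, 1364 and 922.7 (log2 fold change 2.26, SE 0.56, adjusted p = 0.261). The groups did not overlap in any of the 9, whose log2 fold changes ran from 1.86 to 4.18, and no member was called. Without ammonium replicate 1, pp_134772 had a log2 fold change of 2.65 (adjusted p = 0.00559) and pp_134771 one of 4.70 (adjusted p = 0.0791).

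The block had sharp ends and lay 13 numbers after pp_134758, the most abundant called transcript. On its sides pp_134769 had a log2 fold change of -0.16 and pp_134781 one of 0.05. The pair pp_134757 and pp_134758 behaved otherwise: their ammonium libraries lay at 332.8, 360.0 and 341.9 CPM and at 714.3, 744.8 and 706.1, so the 3 libraries lay close together, with replicate 1 the lowest for pp_134757 and the middle one for pp_134758. Across the 3 ammonium libraries the pair was thus even and the block uneven.

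**Figure D5:**
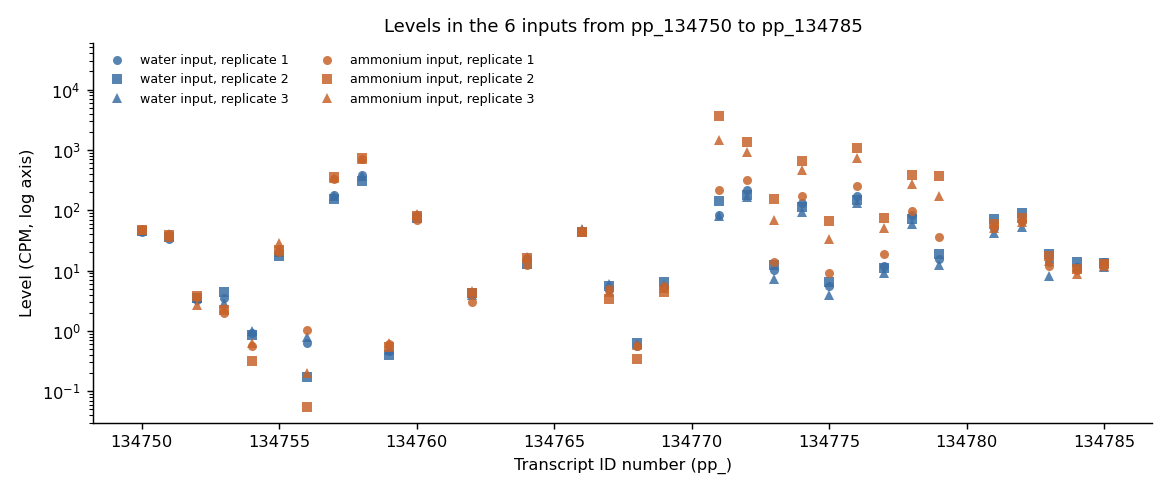
Level in CPM (log axis) of the 31 tested IDs from pp_134750 to pp_134785 in each of the 6 inputs (blue water, orange ammonium; circle, square and triangle are replicates 1, 2 and 3). At pp_134757 and pp_134758 the 3 ammonium libraries lie together above the water libraries, and from pp_134771 to pp_134779 ammonium replicate 1 lies just above the water libraries and replicates 2 and 3 far above.

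Uncalled stretches of like direction were common beyond this block. Of 109 stretches of 6 or more consecutive IDs with a higher level at an unadjusted p under 0.05, 44 held a called ID and 65 did not. Of 41 such stretches with a lower level 1 held a called ID. At that threshold 10.4% of all tested transcripts passed (6921 higher, 4974 lower). The longest higher stretch without a call was pp_202088 to pp_202101, with 14 IDs and a median log2 fold change of 1.66, and the longest lower one was pp_136603 to pp_136614, with 12 IDs and -0.56.

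The m6A-precipitated libraries of the same treatments gave a second readout, from RNA that may be shared with the inputs. No transcript was called there for ammonium against water with edgeR (0% of 99846 tested), nor for a difference between the precipitated and the input response (0% of 148273). The water precipitates lay far apart on some transcripts. For replicates 1, 2 and 3, pp_92107 stood at 81.8, 8.06 and 20.6 CPM there, and pp_67823 at 378.1, 322.5 and 443.5. How far this spread limited the calls and the fold changes below was not tested. Of the 440 higher transcripts 316 had enough reads to be tested in the precipitate, and 184 of these had a fold change above 0 there, with a median log2 fold change of 0.14. Of the 47 lower ones 18 could be tested, and 17 of these lay below 0, with a median of -1.74. The median over all transcripts tested in the precipitate was -0.23. These tallies cover members with enough precipitated reads and are given as description. A lower transcript could pass that filter on its water precipitates alone. This held for pp_1921, with 0.157, 0.17 and 0.242 CPM in the water precipitates and 0 in each ammonium precipitate. The sign among the lower members tested was therefore partly set by the filter, and their tally is no separate result. Of the 14 IDs of the longest run 4 had enough reads to be tested in the precipitate and 2 of these were higher. Its summed level there was 14.8, 14.0 and 21.6 CPM with water and 13.8, 11.97 and 16.8 with ammonium. That sum was nearly all 1 member, pp_235812, with 11.4, 13.6 and 21.1 CPM with water and 12.7, 10.4 and 15.6 with ammonium, so it does not describe the other 13. The precipitated sum of pp_125157 to pp_125159 was 4.68, 4.83 and 6.32 CPM with water and 10.7, 17.6 and 11.0 with ammonium, after 16.5, 14.9 and 20.3 against 50.9, 81.9 and 60.5 in the inputs. This run was not chosen by the naming rule, and runs differed. Of its members 3 of 3 were higher in the precipitate, and of those of pp_164173 to pp_164176 0 of 4. Among the called transcripts, 18 of the 440 higher ones (4.09%) and 1 of the 47 lower ones (2.13%) carried an m6A peak in the authors' deposited lists, where 4.88% of all tested transcripts did.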

How the data were processed

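The authors deposited raw read counts per transcript ID, per the file headers, with no normalization, and lists of m6A peaks whose fold enrichment is their ratio of precipitate over input. Tools named in the submitters' processing notes are bcl2fastq and BWA. For their versions, the reference, the counting rule, the strand setting and the handling of duplicates, nothing is given in the sources used here. Library groups and numbers came from the titles.

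The 6 inputs were fitted alone with edgeR 4.0.16 in R 4.3.3: default expression filter (minimum count 10, minimum total 15), trimmed-mean scaling, robust quasi-likelihood F tests (two-sided), Benjamini-Hochberg adjustment over 114887 transcripts, called at 0.05. The filter left out 89770 transcripts that had a read. SE is the fold change divided by the root of F. A run is a series of consecutive called IDs of 1 direction. Fits were tested on simulated counts.

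Transcripts named were, 1 per run and per direction, the 5 smallest p, the 3 largest folds with a mean of at least 1 CPM in the higher group, the 3 highest levels, the longest runs (5 higher, 3 lower) and the smallest p in each group of levels. The members, lists and alternatives were chosen with earlier results of these data known. Pairs of libraries of 1 group differed by a chi-square per degree of freedom of 10.6 to 29.3, so none was a duplicate. Alternatives were other scalings, filters and fits, DESeq2 1.42.0, limma 3.58.1 (voom), a replicate block, all 12 libraries and omission of each input.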

Additional observations from a re-analysis of the deposited data

How the results depend on the processing

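The counts of called transcripts moved with most choices, given here as all called (higher, lower, units). They were 2461 (1640, 821, 1776) with no filter, 252 (234, 18, 183) with a filter of 50 reads in 3 libraries, 2687 (1992, 695, 1709) with DESeq2 and 2641 (1565, 1076, 1770) with limma's voom and sample weights, which gave ammonium replicate 1 a weight of 0.487 and water replicate 1 one of 2.30. In the fit of all 12 libraries 0 passed (0 higher, 0 lower, 0 units; smallest adjusted p 0.130; 4442 at an unadjusted p under 0.05), and its shared spread includes that of the precipitated libraries. Omission of 1 input library gave 39 to 4921 called, 36 to 2494 higher, 3 to 2427 lower and 30 to 3078 units. Omission moved the difference in the share of the 100 most abundant transcripts between 0.212 and 0.396 percentage points. Size factors of the DESeq2 type (477), library totals alone (342) and a fit without robust estimation (444) kept all called within 1.5 times, and the higher share, 90.3% with all 6 libraries, was 86.3% to 92.8% there; it was 66.6% with no filter, 74.1% with DESeq2, 59.3% with voom and 50.7% without ammonium replicate 1. No named transcript changed sign in any of these fits. Their groups did not overlap, so a change of sign was unlikely from the start. All 29 lost their call once the precipitated libraries were fitted too, and 11 of 29 kept it when water replicate 1 was left out. The cause of these moves was not tested. With the replicate number as a block 896 were called (720, 176, 634), with 33 lower at 20 to 100 CPM and 1 above that level. The labels do not tie the numbers across treatments. The deviations of same-numbered libraries correlated at 0.00726, 0.292 and 0.140, and those of differently numbered ones at -0.293 to 0.130. Ammonium replicate 1 correlated better with water replicate 3 (0.130) than with its own number. Whether libraries of 1 number belong together was not tested. The faint transcripts, under 0.5 CPM, had a median SE of 0.53, and how far depth set it was not tested.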

Other observations

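In the precipitated libraries the block from pp_134771 to pp_134779 summed to 130.6, 38.7 and 137.6 CPM with water and to 76.6, 379.4 and 237.4 CPM with ammonium (replicates 1, 2 and 3). The order of the ammonium replicates was the same as in the inputs, with 1132, 7857 and 4161 CPM, and the labels do not say whether libraries of 1 number share RNA. All 9 members had a higher fitted level with ammonium there, with log2 fold changes from 1.23 to 3.49, and none passed (adjusted p from 0.464 to 0.474 in edgeR).

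Transcripts with reads in 1 treatment only were mostly faint. With at least 1 read in each library of 1 treatment and 0 in all libraries of the other, there were 462 with ammonium and 785 with water. A minimum of 3 reads left 49 and 115. At 10 reads there were 3 transcripts with ammonium and 6 with water, and 1 of each was called. Of the 3 with ammonium, pp_12622 was left out by the filter on reads and not tested. The transcript pp_231925 had 20, 69 and 38 reads with ammonium and 0 with water (adjusted p = 0.0323), and pp_202910 had 22, 24 and 20 reads with water and 0 with ammonium (adjusted p = 0.0381). With at least 30 reads there was none in either direction.

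Next to the stretch of higher IDs that starts at pp_197328 stood 6 IDs with lower fitted levels, pp_197322 to pp_197327, with log2 fold changes from -1.30 to -0.57 and adjusted p from 0.356 to 0.581 in edgeR. They were picked after their values were seen.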
